A study of Mus musculus with 12 samples.

Results

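The sinus venosus and inflow transcription factors described here are 7 genes, Isl1, Shox2, Tbx3, Tbx18, Tbx2, Nr2f1 and Nr2f2, out of 19938 genes measured. They were chosen by symbol, with earlier results of these data known. Each gene was read by the 1 probe set that carries its symbol alone. Levels were measured on 12 Affymetrix arrays of mouse hearts taken at E8.75, an embryonic stage at which the heart is a looping tube. The labels give 3 arrays each for embryos without Nkx2-5 (Nkx2-5 KO), without Tbx5 (Tbx5 KO), without both genes (double KO, labelled Tbx5 KO;Nkx2-5 KO) and for wild type (WT). Each group's arrays are titled as biological replicates. Strain, the alleles behind each KO, the part of each gene removed and any pooling of hearts are not given in the sources used here, so p-values measure only the spread between these arrays. Crossing both losses asks what each factor controls alone and what depends on both.

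The sinus venosus is the inflow end of the embryonic heart, where blood returns from the veins and where the sinoatrial node, the natural pacemaker, takes shape. Its myocardium is built with Tbx18, is specified as pacemaker tissue with Shox2, Isl1 and Tbx3, and in its sinus horns largely lacks Nkx2-5. Nkx2-5 and Tbx5 are cardiac transcription factors that bind DNA together at many heart genes and drive the working chamber programme. Tbx2 and Tbx3 repress that programme in the atrioventricular canal and conduction system, and Nr2f1 and Nr2f2, also called COUP-TFI and COUP-TFII, are orphan nuclear receptors of the atria and inflow tract.

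The 12 arrays had medians of 8.05 to 8.25 log2 units, and the mean level of 12 cardiomyocyte markers lay between 12.5 and 12.8 log2 units in every group. The probe sets of the targeted genes do not check the genotypes. Nkx2-5 differed from WT by -0.41 ± 0.11 log2 units (here and below, a difference is followed by ± its SE from the limma fit, n = 3 arrays a group) in Nkx2-5 KO hearts (adjusted p = 0.0499) and by -0.27 ± 0.11 in double KO hearts (adjusted p = 0.0878), and Tbx5 was 0.47 ± 0.15 above WT in Tbx5 KO hearts (adjusted p = 0.127) and 0.54 ± 0.15 above WT in double KO hearts, where it was called higher (adjusted p = 0.0193). Sex-linked genes divided the arrays. Xist, the RNA that coats the inactive X chromosome, read 6.59 to 7.03 log2 units in Nkx2-5 KO and 6.44 to 8.16 in double KO hearts, against 11.5 to 12.3 in Tbx5 KO and 11.5 to 11.9 in WT hearts. Loss of Nkx2-5 and the sex of the embryos therefore cannot be told apart in Nkx2-5 KO against WT, double KO against WT, double KO against Tbx5 KO or Tbx5 KO against Nkx2-5 KO, whereas Tbx5 KO with WT and double KO with Nkx2-5 KO compare arrays alike in Xist. Arrays alike in Xist were not all alike in other sex-linked genes. The mean level of 4 sex-linked genes was 8.08 on WT replicate 3 and 7.26 and 7.30 on the other WT arrays. It was 7.27 to 7.51 in Tbx5 KO, 8.57 to 9.11 in Nkx2-5 KO and 8.76 to 9.29 in double KO hearts. The part of embryo sex in the values below was not tested. In whole hearts, fewer cells of a type and less RNA per cell cannot be told apart.

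The 7 genes did not move as one group. Isl1 and Tbx3 rose in Nkx2-5 KO hearts, while Shox2 and Nr2f1 fell there. In Tbx5 KO hearts Shox2, Tbx18, Nr2f1 and Nr2f2 fell and no member rose. In double KO hearts Isl1 rose and Tbx18, Nr2f1 and Nr2f2 fell, and Shox2 and Tbx3 did not pass the test. Tbx2 passed it in none of the comparisons.

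**Figure D1:**
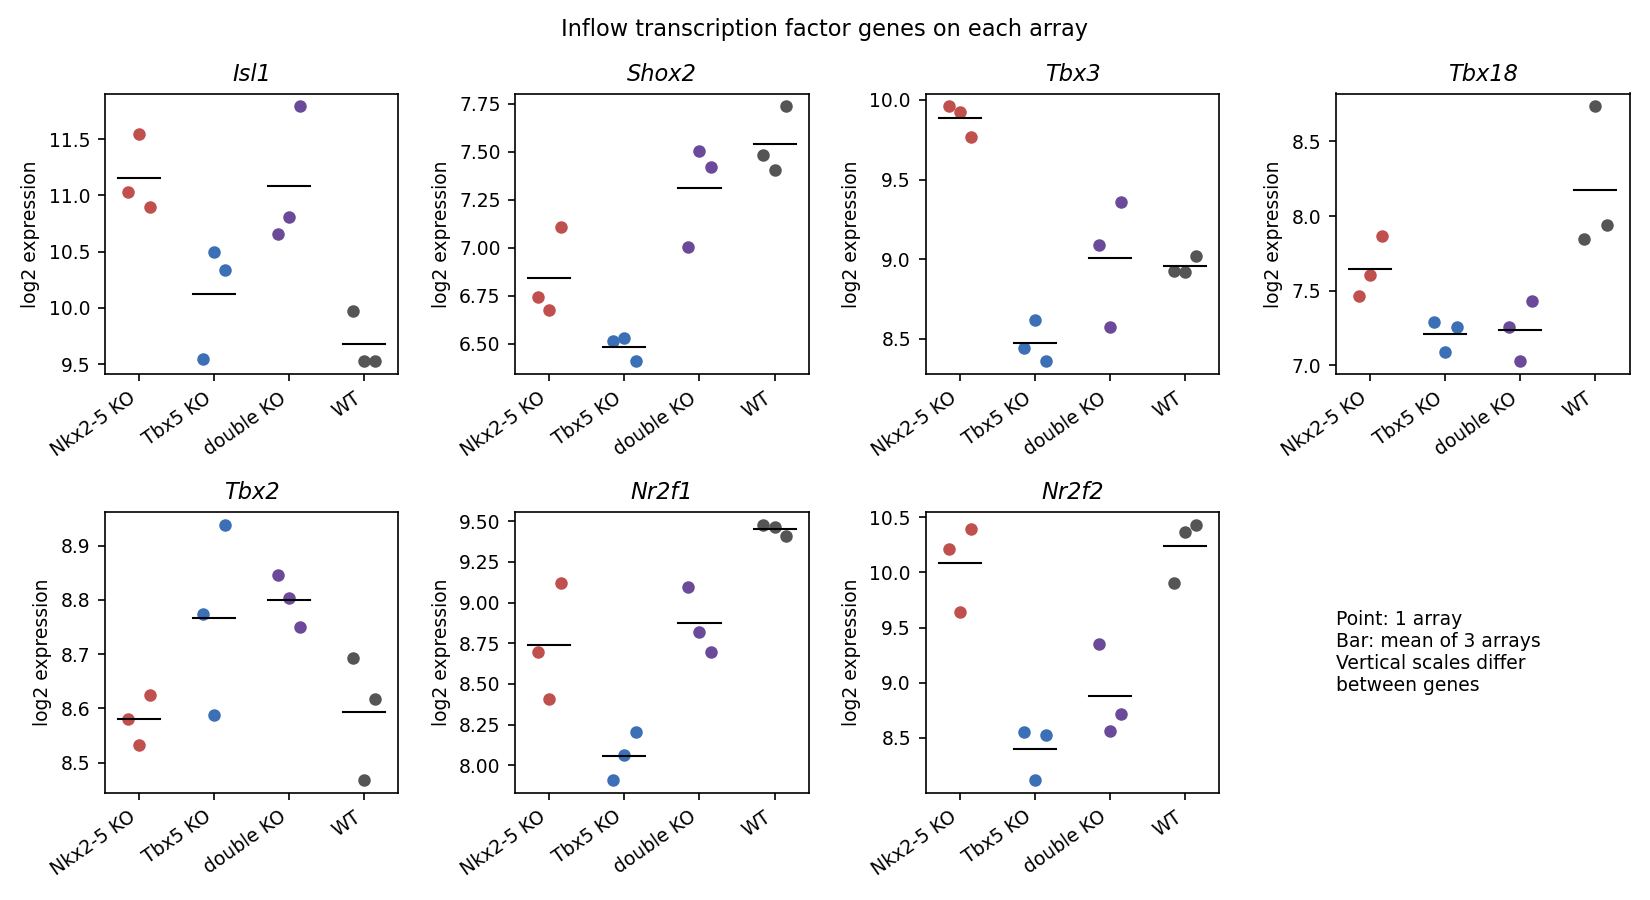
Level of each inflow transcription factor gene on each array (vertical axis, log2 expression; horizontal axis, Nkx2-5 KO, Tbx5 KO, double KO and WT). Points are single arrays and bars the mean of 3; the scale differs between genes. Shox2 and Nr2f1 are lowest in Tbx5 KO hearts, with double KO means of 7.31 and 8.87 above the Tbx5 KO means of 6.48 and 8.06.

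A gene was called when its p from limma, with Benjamini-Hochberg adjustment over the 19938 genes, was under 0.05. In Nkx2-5 KO against WT hearts 4 of the 7 members were called, 2 higher and 2 lower, where 4.43% of all genes were called (1.84% higher, 2.59% lower). In Tbx5 KO against WT hearts 4 members were called lower and 0 higher, beside 2.31% of all genes called (1.31% lower, 0.998% higher). In double KO against WT hearts 1 member was called higher and 3 lower, beside 23.4% of all genes (9.05% higher, 14.4% lower). These 3 comparisons share the WT arrays. As the members were chosen with earlier results of these data known, their counts beside the shares of all genes are not a test of the set.

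Among the KO groups, 2 members were called lower in double KO than in Nkx2-5 KO hearts, beside 5.56% of all genes called (1.01% higher, 4.55% lower). Against Tbx5 KO hearts 2 were called higher in double KO hearts, beside 10.7% of all genes called (2.87% higher, 7.86% lower). Between the single losses 3 members were called lower in Tbx5 KO than in Nkx2-5 KO hearts, beside 2.39% of all genes called (1.01% higher, 1.37% lower). The values of the groups did not overlap for 4 members in Nkx2-5 KO against WT (23.2% of all genes), 5 in Tbx5 KO against WT (21.1%) and 5 in double KO against WT (41.1%). They did not overlap for 4 members in double KO against Nkx2-5 KO (26.1%), 4 in double KO against Tbx5 KO (29%) and 6 in Tbx5 KO against Nkx2-5 KO (18.4%).

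**Figure D2:**
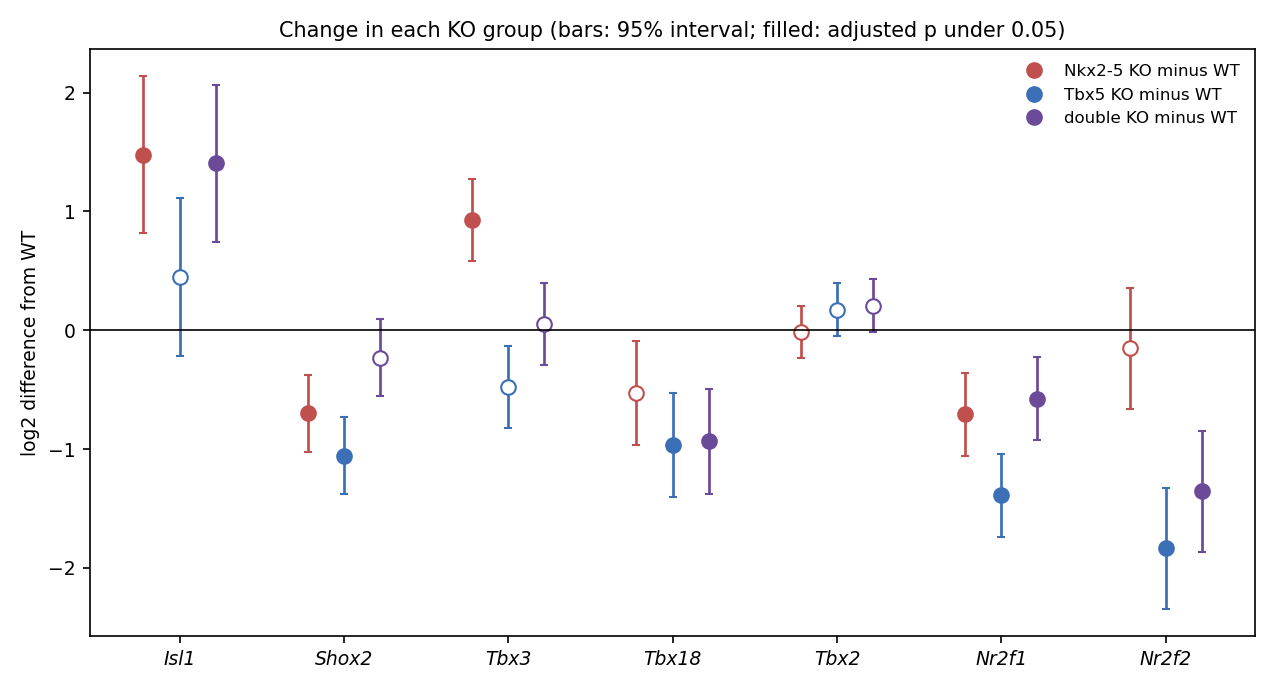
Difference from WT of each member in the Nkx2-5 KO, the Tbx5 KO and the double KO (vertical axis, log2 difference of group means; bars, 95% interval of the limma fit; 3 arrays a group). Filled points have an adjusted p under 0.05; Isl1 lies at 1.48 in Nkx2-5 KO and 1.41 in double KO hearts, and Nr2f2 at -1.84 in Tbx5 KO hearts.

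The promoter sequences of the 4 members that fell in Tbx5 KO hearts are shown because these genes moved together there. RefSeq (build GRCm38.p6) listed promoters for 5 of the 7 members, and each stretch below is the 250 bases before a gene's start on the minus strand, printed 5′ to 3′. They are chr3:66981772-66982021 for Shox2, chr9:87731261-87731510 for Tbx18, chr13:78198874-78199123 for 1 of the starts of Nr2f1 and chr7:70366747-70366996 for Nr2f2. Capitals mark the core letters GGTGT of a T-box site or AAGTG of an NK2 homeodomain site.
Shox2: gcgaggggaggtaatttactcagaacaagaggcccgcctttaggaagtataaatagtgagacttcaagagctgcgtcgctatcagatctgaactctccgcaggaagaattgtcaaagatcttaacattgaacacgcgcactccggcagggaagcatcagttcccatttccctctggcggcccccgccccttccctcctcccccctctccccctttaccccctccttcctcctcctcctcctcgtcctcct
Tbx18: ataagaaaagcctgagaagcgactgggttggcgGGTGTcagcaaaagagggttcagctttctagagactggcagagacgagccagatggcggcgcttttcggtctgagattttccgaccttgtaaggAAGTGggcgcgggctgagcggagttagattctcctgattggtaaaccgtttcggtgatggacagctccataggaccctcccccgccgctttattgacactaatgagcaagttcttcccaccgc
Nr2f1: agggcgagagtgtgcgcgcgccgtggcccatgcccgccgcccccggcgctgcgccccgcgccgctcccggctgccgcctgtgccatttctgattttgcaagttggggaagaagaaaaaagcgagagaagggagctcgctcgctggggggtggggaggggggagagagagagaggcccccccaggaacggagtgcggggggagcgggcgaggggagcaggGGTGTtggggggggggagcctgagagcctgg
Nr2f2: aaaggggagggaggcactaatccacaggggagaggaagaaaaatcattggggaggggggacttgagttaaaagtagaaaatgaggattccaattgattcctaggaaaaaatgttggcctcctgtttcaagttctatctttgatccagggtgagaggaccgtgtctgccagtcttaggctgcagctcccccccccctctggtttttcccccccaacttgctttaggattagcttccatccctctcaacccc

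The searches covered both strands. The T-box half-site GGTGTG and the NK2 site TNAAGTG were found in 0 of the 6 member promoters, and in 16.3% and 10.1% of all 32851 promoters of that length. The shorter core GGTGT, which lies within that half-site, began at base -217 from the start of Tbx18 and at base -31 from that of Nr2f1, and occurs in 36.2% of all promoters. AAGTG, which lies within the NK2 site, began at base -123 in Tbx18 and occurs in 40.7%. The 4 sequences differ in make-up, from 1 CpG and 50.0% GC in Nr2f2 to 22 CpG and 72.0% GC in Nr2f1. All promoters had medians of 6 CpG and 52.4% GC. A match describes letters only.

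Isl1 encodes a LIM homeodomain factor of second heart field progenitors and of the sinoatrial node. It read 11.03, 11.54 and 10.89 log2 units in Nkx2-5 KO hearts, 9.54, 10.50 and 10.33 in Tbx5 KO hearts and 10.65, 10.80 and 11.79 in double KO hearts, against 9.97, 9.53 and 9.53 in WT hearts. All arrays without Nkx2-5 lay above all arrays that kept it. The difference was 1.48 ± 0.31 log2 units, or 2.79-fold, in Nkx2-5 KO against WT hearts (adjusted p = 0.0192) and 1.41 ± 0.31 in double KO against WT hearts (adjusted p = 0.00524). Tbx5 KO hearts did not pass the test (0.45 ± 0.31, 95% interval -0.21 to 1.11, adjusted p = 0.566), and their values overlapped those of WT.

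By mean level Isl1 stood highest in Nkx2-5 KO hearts at 11.16, then at 11.08 in double KO, 10.12 in Tbx5 KO and 9.68 in WT hearts, and no neighbours in that order differed past the threshold. Double KO against Tbx5 KO hearts came closest, at 0.96 ± 0.31 (adjusted p = 0.0659). The difference was called with array weights (adjusted p = 0.0314), after quantile normalization (adjusted p = 0.0361) and without double KO replicate 1 (adjusted p = 0.0452). In the other settings it was not called, with adjusted p up to 0.223. Without 1 array it fell as low as 0.60. Isl1 was the most variable member within groups, with a residual SD of 0.454 that exceeded that of 98.5% of genes.

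The highest Nkx2-5 KO value of Isl1 came from replicate 2, an array that also stood apart in 10 markers of pharyngeal mesenchyme and neural crest, tissues beside the heart tube. Their mean level was 8.46 on that array and 7.79 and 7.89 on the other Nkx2-5 KO arrays, 7.72 to 7.78 in Tbx5 KO and 7.82 to 7.97 in double KO hearts, against 7.61 to 7.87 in WT hearts. Without that array Isl1 was 1.29 above WT and no longer called (adjusted p = 0.0548), and without Nkx2-5 KO replicate 1 or WT replicate 3 the adjusted p was 0.0652 and 0.0687. The mean level of 12 foregut and visceral endoderm markers was 7.996 to 8.34 in Nkx2-5 KO, with replicate 2 highest, 7.96 to 8.04 in Tbx5 KO and 8.19 to 8.36 in double KO hearts, with replicate 3 highest as for Isl1, against 7.74 to 8.09 in WT hearts. The part of both lists in the Isl1 values was not tested.

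Shox2 encodes a homeodomain factor of sinus venosus myocardium that is known to restrain Nkx2-5 in the sinoatrial node. It read 6.74, 6.67 and 7.11 in Nkx2-5 KO hearts, 6.52, 6.53 and 6.41 in Tbx5 KO hearts and 7.003, 7.503 and 7.419 in double KO hearts, against 7.48, 7.40 and 7.74 in WT hearts. Both single losses lay wholly below WT, and the double KO values overlapped those of WT in log2 units. Ranked among all probe sets of its array, Shox2 stood at percentiles 25.58 to 33.83 in double KO and 36.65 to 42.01 in WT hearts, without overlap. The double KO arrays had medians of 8.17 to 8.25 log2 units, against 8.05 to 8.11 on WT arrays. Shox2 fell by 0.70 ± 0.15 log2 units in Nkx2-5 KO hearts (adjusted p = 0.0219) and by 1.06 ± 0.15, or 2.08-fold, in Tbx5 KO hearts (adjusted p = 0.00347). The Nkx2-5 KO call was lost in 4 of 12 alternative settings, each without 1 array (adjusted p 0.0619 to 0.0991). The double KO difference from WT was -0.23 ± 0.15 (95% interval -0.56 to 0.09, adjusted p = 0.281). Over the alternative settings it lay between -0.40 and -0.08 and was not called (adjusted p 0.0521 to 0.738).

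The double KO hearts were higher in Shox2 than Tbx5 KO hearts by 0.82 ± 0.15 (adjusted p = 0.00371), without overlap of the groups. Against Nkx2-5 KO hearts they stood 0.47 ± 0.15 higher (adjusted p = 0.0909), and 1 double KO array lay within the Nkx2-5 KO range. This difference was called in 3 of 12 alternative settings (adjusted p 0.0316 to 0.046). They were array weights and leaving out Nkx2-5 KO replicate 3 or double KO replicate 1. In the other settings it was not called, with adjusted p up to 0.292. In the order of means, 6.48 in Tbx5 KO, 6.84 in Nkx2-5 KO, 7.31 in double KO and 7.54 in WT hearts, no neighbours differed past the threshold. The mean of Shox2 over all arrays was below the 25th percentile of genes. The table used here holds no detection call, so how far these levels lie above background was not tested.

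Tbx3 encodes a T-box repressor that keeps chamber genes off in the sinoatrial node and atrioventricular conduction system. On chromosome 5 it is the neighbour of Tbx5, with 0 protein-coding genes between them. The part of this closeness to the altered gene in the Tbx3 values was not tested. Tbx3 read 9.96, 9.93 and 9.77 in Nkx2-5 KO hearts, 8.44, 8.62 and 8.36 in Tbx5 KO hearts and 9.09, 8.57 and 9.36 in double KO hearts, against 8.93, 8.92 and 9.02 in WT hearts. The Nkx2-5 KO arrays lay above all others, the Tbx5 KO arrays lay wholly below WT, and the double KO arrays spread across the WT range. Tbx3 rose by 0.93 ± 0.16 in Nkx2-5 KO hearts (adjusted p = 0.00876).

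Where Tbx5 was lost on top of Nkx2-5, Tbx3 was lower by 0.88 ± 0.16 (double KO against Nkx2-5 KO, -0.88, adjusted p = 0.0076). In Tbx5 KO hearts the difference from WT was -0.48 ± 0.16 (95% interval -0.83 to -0.13, adjusted p = 0.153). The widest gap lay between the single losses, -1.41 ± 0.16 in Tbx5 KO against Nkx2-5 KO hearts (adjusted p = 0.00037). Double KO hearts differed from WT by 0.05 ± 0.16 (95% interval -0.30 to 0.40, adjusted p = 0.845), and from Tbx5 KO hearts by 0.53 ± 0.16 (adjusted p = 0.0525). Without double KO replicate 2 the last difference was 0.75 (adjusted p = 0.00416), and it was also called among genes above the 25th percentile of mean level (adjusted p = 0.0431). In the other settings it was not called, with adjusted p up to 0.162. Without 1 array it fell as low as 0.35. Of neighbours in the order of means, 8.47 in Tbx5 KO, 8.96 in WT, 9.01 in double KO and 9.88 in Nkx2-5 KO hearts, only the last pair differed past the threshold.

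Tbx18 encodes a T-box factor needed to form the sinus horns, and is also expressed in the proepicardium, the cell cluster that gives rise to the epicardium. It read 7.46, 7.60 and 7.87 in Nkx2-5 KO hearts, 7.29, 7.09 and 7.25 in Tbx5 KO hearts and 7.26, 7.03 and 7.43 in double KO hearts, against 7.85, 8.74 and 7.94 in WT hearts. Hearts without Tbx5 lay below all others, and WT replicate 2 stood apart at the top. Tbx18 fell by 0.96 ± 0.20 in Tbx5 KO hearts (adjusted p = 0.0276) and by 0.94 ± 0.20 in double KO hearts (adjusted p = 0.00513). Without WT replicate 2 the differences were -0.68 and -0.65 log2 units, and both were still called.

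The Tbx5 KO call on Tbx18 was lost when any Tbx5 KO array was left out (adjusted p 0.0698 to 0.0923) and when only the arrays compared entered the fit (adjusted p = 0.0738). In Nkx2-5 KO hearts the difference from WT was -0.53 ± 0.20 (95% interval -0.97 to -0.09, adjusted p = 0.176) and the groups overlapped. Neighbours in the order of means, 7.21 in Tbx5 KO, 7.24 in double KO, 7.64 in Nkx2-5 KO and 8.17 in WT hearts, did not differ past the threshold. The mean level of 14 proepicardial and septum transversum markers moved with the high WT array: it was 8.78 to 8.91 in Nkx2-5 KO, 8.78 to 8.94 in Tbx5 KO and 8.62 to 8.73 in double KO hearts, against 8.67 to 9.30 in WT hearts, with WT replicate 2 at 9.30. Its part in the Tbx18 values was not tested.

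Tbx2, the paralogue of Tbx3 that represses chamber genes in the atrioventricular canal, was the steadiest member. It read 8.58, 8.53 and 8.63 in Nkx2-5 KO hearts, 8.77, 8.59 and 8.94 in Tbx5 KO hearts and 8.80 ± 0.05 (SD of 3 arrays) in double KO hearts, against 8.69, 8.47 and 8.62 in WT hearts. Only the double KO arrays lay wholly above WT. The difference from WT was -0.01 ± 0.10 in Nkx2-5 KO hearts (95% interval -0.24 to 0.21), 0.17 ± 0.10 in Tbx5 KO hearts (-0.05 to 0.39) and 0.21 ± 0.10 in hearts of the double KO (-0.02 to 0.43), with adjusted p of 0.977, 0.482 and 0.165. None of the KO pairs was called either (adjusted p 0.233 to 0.874). The 12 arrays spanned 0.47 log2 units, and the residual SD of 0.11 was below the all-gene median of 0.155.

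Nr2f1 encodes COUP-TFI, an atrial nuclear receptor. It read 8.70, 8.41 and 9.12 in Nkx2-5 KO hearts, 7.91, 8.07 and 8.20 in Tbx5 KO hearts and 9.10, 8.82 and 8.70 in double KO hearts, against 9.48, 9.46 and 9.41 in WT hearts. All 9 KO arrays lay below the WT arrays, and the Tbx5 KO arrays lay lowest. Nr2f1 fell by 0.71 ± 0.16 in Nkx2-5 KO hearts (adjusted p = 0.0287), by 1.39 ± 0.16, or 2.62-fold, in Tbx5 KO hearts (adjusted p = 0.000707) and by 0.58 ± 0.16 in double KO hearts (adjusted p = 0.0205). The Nkx2-5 KO call was lost in 6 of 13 alternative settings, with only the arrays compared (adjusted p = 0.0557) and, at adjusted p of 0.0581 to 0.107, when any 1 WT array or the first or second Nkx2-5 KO array was left out.

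Double KO hearts were higher in Nr2f1 than Tbx5 KO hearts by 0.81 ± 0.16 (adjusted p = 0.00634), and differed from Nkx2-5 KO hearts by 0.13 ± 0.16 (95% interval -0.22 to 0.48, adjusted p = 0.661). Tbx5 KO hearts stood below Nkx2-5 KO hearts by -0.68 ± 0.16 (adjusted p = 0.0458), a call that was lost in 9 of 13 alternative settings (adjusted p up to 0.179). The double KO call against WT was lost in 4 of 13, with adjusted p up to 0.0689. In the order of means, 8.06 in Tbx5 KO, 8.74 in Nkx2-5 KO, 8.87 in double KO and 9.45 in WT hearts, Nkx2-5 KO and double KO were the neighbours that did not differ past the threshold.

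Nr2f2 encodes COUP-TFII, which is required for atrial identity and for growth of the atria and sinus venosus. It read 10.21, 9.64 and 10.39 in Nkx2-5 KO hearts, 8.55, 8.12 and 8.52 in Tbx5 KO hearts and 9.36, 8.57 and 8.71 in double KO hearts, against 9.91, 10.37 and 10.43 in WT hearts. All arrays without Tbx5 lay below all arrays with it. Nr2f2 fell by 1.84 ± 0.24, or 3.57-fold, in Tbx5 KO (adjusted p = 0.00154) and by 1.36 ± 0.24, or 2.56-fold, in double KO hearts (adjusted p = 0.00127).

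Against Nkx2-5 KO hearts, double KO hearts were lower in Nr2f2 (difference -1.20 ± 0.24, adjusted p = 0.0114). Without Nkx2-5 KO replicate 1 or double KO replicate 2 that call was lost (adjusted p 0.0509 and 0.0553). Loss of Nkx2-5 alone gave -0.15 ± 0.24 against WT (95% interval -0.66 to 0.36, adjusted p = 0.842), and on the Tbx5 KO background 0.48 ± 0.24 (95% interval -0.03 to 0.99, adjusted p = 0.235). The order of means was thus 8.40 in Tbx5 KO, 8.88 in double KO, 10.08 in Nkx2-5 KO and 10.24 in WT hearts, with the middle pair the only neighbours past the threshold.

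The 4 calls in Nkx2-5 KO against WT hearts depended on single arrays. Without Nkx2-5 KO replicate 1, 0 of the 4 members were called (Isl1 0.0652, Shox2 0.0991, Tbx3 0.0516 and Nr2f1 0.107 as adjusted p), while 169 genes were called in all, against 884 with every array. Without Nkx2-5 KO replicate 2 or WT replicate 3 the count of members was 1, without WT replicate 1 it was 2, and without WT replicate 2 it was 3.

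Set directly against each other, the single losses differed for Tbx3, Nr2f1 and Nr2f2, all lower in Tbx5 KO than in Nkx2-5 KO hearts. For Nr2f2 the difference was -1.68 ± 0.24 (95% interval -2.19 to -1.17, adjusted p = 0.00174). Isl1 was on the same side without overlap of the groups, at -1.03 ± 0.31, and did not pass the test (adjusted p = 0.12). It was called with array weights (adjusted p = 0.017) and in no other setting (adjusted p up to 0.378). Shox2 and Tbx18 also lay wholly lower in Tbx5 KO hearts, at -0.36 ± 0.15 and -0.43 ± 0.20, and were not called (adjusted p = 0.327 and 0.404).

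Loss of Tbx5 on the Nkx2-5 KO background gave Tbx18 a difference of -0.41 ± 0.20 (95% interval -0.85 to 0.03, adjusted p = 0.267). The groups did not overlap, and 26.1% of all genes were apart in that comparison. On the WT background Tbx5 loss had given Tbx18 -0.96 ± 0.20, and the difference between both values is its non-additive term of 0.56 ± 0.29, which was not called. For Nr2f2 Tbx5 loss gave -1.20 ± 0.24 without Nkx2-5 and -1.84 ± 0.24 with it.

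The non-additive term is what remains of the double KO difference from WT, in log2 units, after both single KO differences are taken off. It also measures how the difference made by Nkx2-5 loss differs without and with Tbx5. It was called positive for Shox2, at 1.52 ± 0.21 (95% interval 1.07 to 1.98, adjusted p = 0.0076), and for Nr2f1, at 1.52 ± 0.23 (95% interval 1.02 to 2.01, adjusted p = 0.0109). Over all genes 0.547% were called, 0.0903% positive and 0.456% negative. Nkx2-5 loss went with lower levels of both genes where Tbx5 was present and with higher levels where it was absent. Shox2 was measured at 7.31 in double KO hearts, and adding both single changes to WT gives 5.78. That level is below the lowest Shox2 value on any array, 6.41, and whether the arrays can register it was not tested. For Nr2f1 these values are 8.87 and 7.35.

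Among the 18 positive calls over all genes, ranked by size, Shox2 came 3rd and Nr2f1 4th, after Nppb at 2.52 ± 0.37 and Kcna5 at 2.21 ± 0.27. Nppb encodes a natriuretic peptide of chamber myocardium and Kcna5 an atrial potassium channel. Where Shox2 and Nr2f1 were called higher in double KO than in Tbx5 KO hearts, Nppb was not, at 9.34 in double KO and 9.62 in Tbx5 KO hearts (difference -0.28 ± 0.26, adjusted p = 0.552). Over all genes 117 were called lower in both single KO groups than in WT. Of these, 3 were called higher in double KO than in Tbx5 KO hearts, Shox2, Nr2f1 and Mab21l2 (0.67 ± 0.17 for Mab21l2, adjusted p = 0.023).

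The terms of the other members were not called: -0.52 ± 0.43 for Isl1, -0.40 ± 0.23 for Tbx3, 0.56 ± 0.29 for Tbx18, 0.05 ± 0.14 for Tbx2 and 0.63 ± 0.33 for Nr2f2, with adjusted p of 0.623 to 0.959. Their intervals reach from -1.46 to 0.42 for Isl1 and from -0.09 to 1.35 for Nr2f2. With 3 arrays a group, both a term of 0 and terms as large as those limits therefore remain possible.

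**Figure D3:**
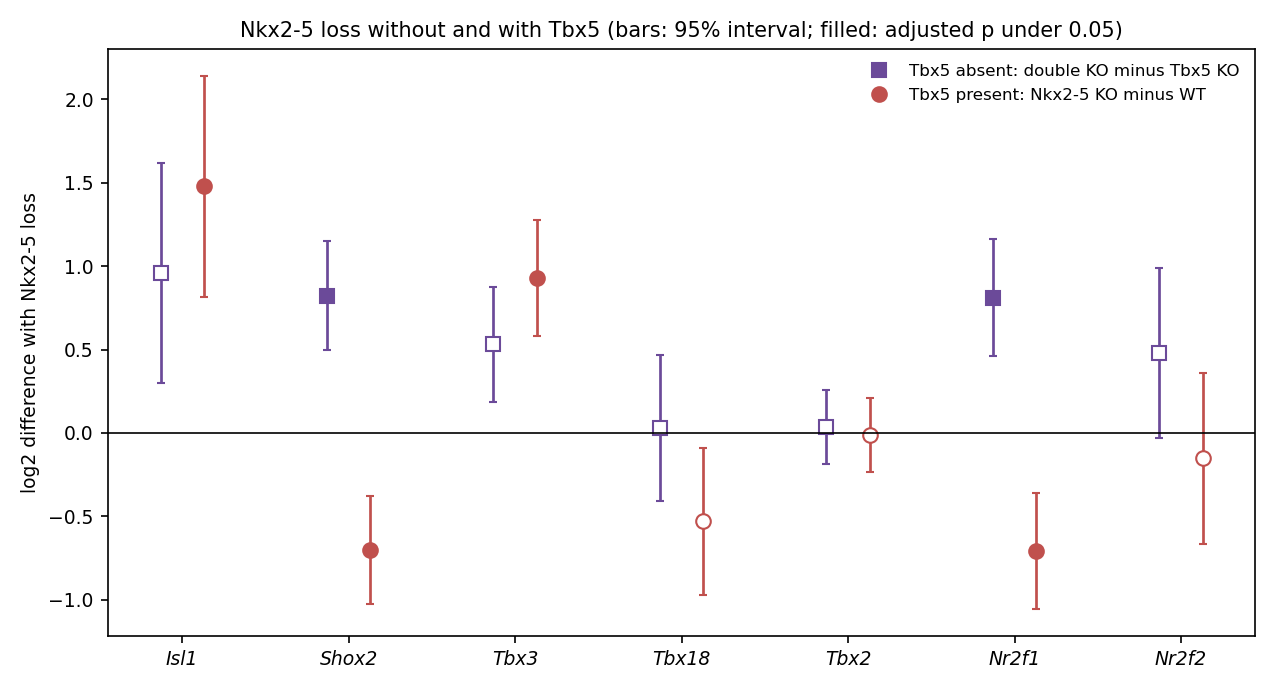
Difference made by Nkx2-5 loss in each member (vertical axis, log2; bars, 95% interval of the limma fit; 3 arrays a group). Squares show double KO minus Tbx5 KO hearts and circles Nkx2-5 KO minus WT hearts, filled where the adjusted p is under 0.05; Shox2 lies at 0.82 and -0.70 and Nr2f1 at 0.81 and -0.71.

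As a description, the genes whose levels followed each member most closely over the 12 arrays were listed by Pearson r, the points sharing groups and arrays. For Isl1 they were Fermt1 (0.939), Prm1 (0.914) and Fxyd6 (0.911). Shox2 was followed by Aard (0.88), Vil1 (0.88) and Ang2 (0.873). Tbx3 had Myzap (0.942), Gramd1b (0.938) and Brd2 (0.936). Aard was also called positive for the non-additive term, at 1.19 ± 0.22 (adjusted p = 0.0362).

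Tbx18 was followed most closely by Lrrn4 (0.96), Itga4 (0.939) and Adck5 (0.919). Itga4 encodes an integrin subunit that the epicardium needs to attach to the heart, and it averaged 7.48 in Tbx5 KO hearts and 7.49 in double KO hearts, against 9.08 in WT hearts. Tbx2 had Mxra8 (0.897), Vwa5b2 (0.888) and Llgl2 (0.879). Nr2f1 had Slc30a1 (0.901), Cd320 (0.893) and Tecrl (0.883), and Nr2f2 had Cpe (0.965), Cct2 (0.925) and Phldb2 (0.923).

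Among pacemaker and sinus venosus genes, most calls were higher in Nkx2-5 KO than in WT hearts, as for Tbx3, and lower in both groups without Tbx5. Of 15 measured on a list of ion channels, signals and markers, 5 were called higher and 1 lower in Nkx2-5 KO against WT hearts, 1 higher and 6 lower in Tbx5 KO, and 1 higher and 7 lower in double KO hearts. The list's median differences were 0.15, -0.33 and -0.51 log2 units, beside 0.00, 0.01 and 0.06 over all genes. For this and the later lists, 4.43%, 2.31% and 23.4% of all genes were called against WT in the same order of groups. In double KO hearts 9.05% of all genes were called higher and 14.4% lower. Where Nkx2-5 was lost on the Tbx5 KO background (double KO against Tbx5 KO), 2 of this list were called higher and 2 lower, beside 10.7% of all genes called. Hcn4, the channel of the pacemaker current, rose by 0.90 ± 0.18 in Nkx2-5 KO hearts (adjusted p = 0.0176) and fell by 1.22 ± 0.18 in Tbx5 KO hearts (adjusted p = 0.00416). In double KO hearts it read 9.55 to 9.96, against 9.65 to 9.95 in WT hearts. Its rise in Nkx2-5 KO hearts was not called when WT replicate 1 or either the first or the third Nkx2-5 KO array was left out (adjusted p 0.0645 to 0.0774).

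Other genes of the list stood far lower in double KO than in Nkx2-5 KO hearts. Cacna2d2, a calcium channel subunit, read 8.13 to 8.48 in double KO and 11.82 to 12.39 in Nkx2-5 KO hearts (difference -3.83 ± 0.15, adjusted p = 4.83e-08). Vsnl1, a neuronal calcium sensor also found in the sinoatrial node, read 7.62 to 7.83 in double KO and 12.61 to 12.79 in Nkx2-5 KO hearts (difference -4.99 ± 0.19, adjusted p = 4.07e-08). For Rgs6, a regulator that speeds the end of vagal G-protein signalling, the same difference was -2.36 ± 0.16 (adjusted p = 6.87e-06). In that comparison Tbx3 and Nr2f2 were also called lower, while Isl1, at -0.07 ± 0.31, and Shox2, at 0.47 ± 0.15, were not called.

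**Figure D4:**
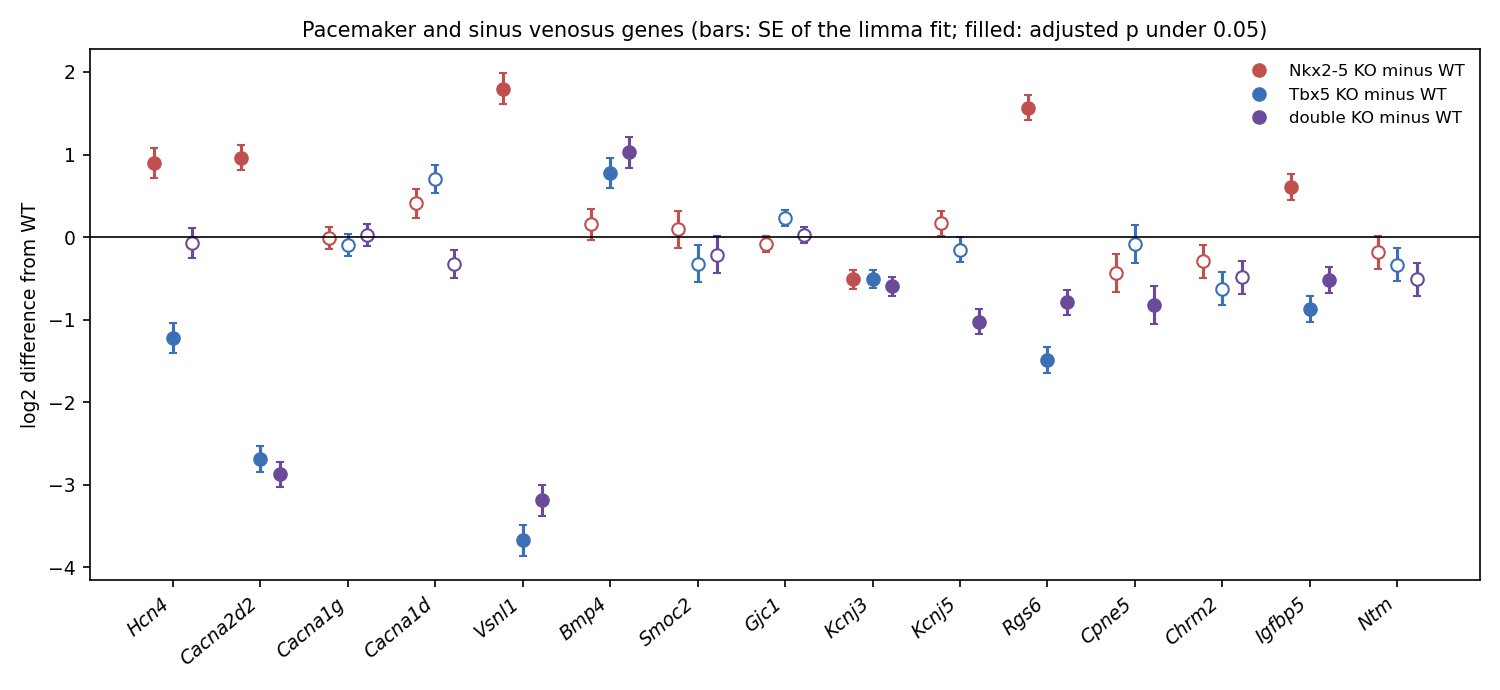
Difference from WT of the 15 measured pacemaker and sinus venosus genes in the Nkx2-5 KO, the Tbx5 KO and the double KO (vertical axis, log2; bars, SE of the limma fit; 3 arrays a group). Filled points have an adjusted p under 0.05; Vsnl1, Cacna2d2, Rgs6 and Hcn4 lie above 0 in Nkx2-5 KO and below it in Tbx5 KO hearts.

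Tbx2 and Tbx3 are known to repress chamber genes. Of 13 chamber genes measured, 0 were called higher and 8 lower in Nkx2-5 KO, 0 and 10 in Tbx5 KO, and 0 and 11 in double KO hearts. Nppa, the atrial natriuretic peptide gene, fell by 2.65 ± 0.26 in Nkx2-5 KO, where Tbx3 was higher, and by 3.31 ± 0.26 in Tbx5 KO hearts, where Tbx3 was not (adjusted p = 0.00026 and 3.74e-05). The part of Tbx2 and Tbx3 in the chamber gene values was not tested. Of 9 atrial genes 3 were called lower with Nkx2-5 lost, 4 with Tbx5 lost and 5 with both lost, and 0 higher. Angpt1, a vessel ligand made by atrial myocardium, fell by 4.17 ± 0.19 in double KO hearts (adjusted p = 3.34e-07).

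The atrioventricular canal is the other territory of Tbx2 and Tbx3. Of 9 canal genes measured, 0 were called in Nkx2-5 KO, 1 was called lower in Tbx5 KO and 2 lower in double KO hearts. Over all genes 14.4% were called lower in double KO hearts. Bmp2, the canal signal that induces Tbx2, was lower by 1.24 ± 0.28 in Tbx5 KO hearts (difference -1.24, adjusted p = 0.0398), where Tbx2 itself differed by 0.17 ± 0.10. That call on Bmp2 was lost without any 1 of 5 of the 6 arrays compared (adjusted p 0.0848 to 0.142). Any link between the Bmp2 and Tbx2 values was not tested.

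Second heart field genes, the progenitor programme that includes Isl1, had 3 of 15 called higher and 1 lower in Nkx2-5 KO, 0 higher and 1 lower in Tbx5 KO, and 6 higher and 0 lower in double KO hearts. Fgf10, a growth factor of the progenitors, rose by 1.85 ± 0.26 in Nkx2-5 KO hearts (adjusted p = 0.00283). In double KO hearts Fgf10 was lower than in Nkx2-5 KO hearts, at -1.20 ± 0.26 (adjusted p = 0.0174), while Isl1 differed by -0.07 ± 0.31. Mab21l2, a nuclear protein gene on the same list, averaged 8.92 in Nkx2-5 KO hearts, 8.81 in Tbx5 KO hearts and 9.48 in double KO hearts, against 9.76 in WT hearts. Its non-additive term was 1.50 ± 0.24 (adjusted p = 0.015), beside 1.52 for both Shox2 and Nr2f1.

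Retinoic acid patterns the inflow tract and can induce Nr2f genes. Of 14 genes of its pathway 2 were called higher with Nkx2-5 lost, 0 with Tbx5 lost and 5 with both lost, and 0 lower. Aldh1a1, an enzyme of retinoic acid synthesis, rose by 1.02 ± 0.16 in Nkx2-5 KO hearts (adjusted p = 0.00581). Cyp26a1, an enzyme of its breakdown, was the other call there, at 0.84 ± 0.17 (adjusted p = 0.017). That call was lost without WT replicate 1 or Nkx2-5 KO replicate 1 (adjusted p 0.0748 and 0.0823). In double KO hearts Cyp26a1 was called higher, at 0.69 ± 0.17 (adjusted p = 0.00987, but 0.0712 after quantile normalization). Aldh1a1 was not called there, at -0.41 ± 0.16 (adjusted p = 0.0754). Aldh1a2, the main embryonic enzyme of retinoic acid synthesis, averaged 7.42 ± 0.37 in Nkx2-5 KO hearts, 6.81 ± 0.17 in Tbx5 KO hearts and 7.01 ± 0.12 in double KO hearts (SD, n = 3), against 7.42 ± 0.42 in WT hearts. It was not called (adjusted p 0.163 to 0.997 against WT).

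Of 17 relatives of the members in the T-box, COUP-TF, LIM and paired-type homeodomain families, 0 were called in Nkx2-5 KO or Tbx5 KO against WT hearts. In double KO hearts 3 were called higher and 2 lower, among them Tbx5 itself, Prrx2 at -0.89 ± 0.19 (adjusted p = 0.00473) and Mga at 0.49 ± 0.12 (adjusted p = 0.00951). Over all genes 9.05% were called higher and 14.4% lower in double KO against WT hearts. Median centring of the arrays ended the calls on Tbx5 and Mga (adjusted p = 0.073 and 0.0707).

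Markers of other cell types were read beside the members. Of 14 proepicardial and septum transversum markers, 2 were called higher and 1 lower in Nkx2-5 KO, 1 and 0 in Tbx5 KO and 1 and 3 in double KO hearts. Wt1, which marks the proepicardium as Tbx18 does, fell by 0.90 ± 0.19 in double KO hearts (adjusted p = 0.0043), whereas Cfc1, a Nodal co-receptor gene, rose in all 3 KO groups, by 0.98 ± 0.16, 1.06 ± 0.16 and 1.14 ± 0.16. Endothelial markers matter here because veins express Nr2f2. Of 15 measured, 0 were called in either single KO, and 2 were called higher and 2 lower in double KO hearts. Beside both lists, 23.4% of all genes were called in double KO hearts (9.05% higher, 14.4% lower).

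The mean level of 8 trophoblast and decidua markers stood apart in Tbx5 KO hearts, where 2 of them were called higher and 0 lower. Their median difference from WT was 0.19 log2 units there, beside 0.01 over all genes. The mean level was 7.21 to 7.33 in Tbx5 KO hearts. It was 6.24 to 6.45 in Nkx2-5 KO, 6.26 to 6.35 in double KO and 6.23 to 6.27 in WT hearts. Prl3d3, a placental hormone gene, rose by 4.32 ± 0.35 in Tbx5 KO hearts (adjusted p = 4.71e-05). The part of this in the Tbx5 KO values of Shox2, Tbx18, Nr2f1 and Nr2f2 was not tested. In double KO hearts the mean level of these markers was near that of WT. These members there differed from WT by -0.23 (Shox2, not called), -0.94 (Tbx18), -0.58 (Nr2f1) and -1.36 (Nr2f2). In Tbx5 KO hearts the same differences were -1.06, -0.96, -1.39 and -1.84. Shox2 and Nr2f1 were called higher in double KO than in Tbx5 KO hearts, and Tbx18 and Nr2f2 were not called in that comparison (adjusted p = 0.948 and 0.235).

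Foregut and visceral endoderm markers had 2 of 12 called higher with Nkx2-5 lost, 1 with Tbx5 lost and 5 with both lost. Of 6 erythroid markers 3 were called lower in double KO hearts. The part of these lists in the members' values was not tested.

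**Figure D5:**
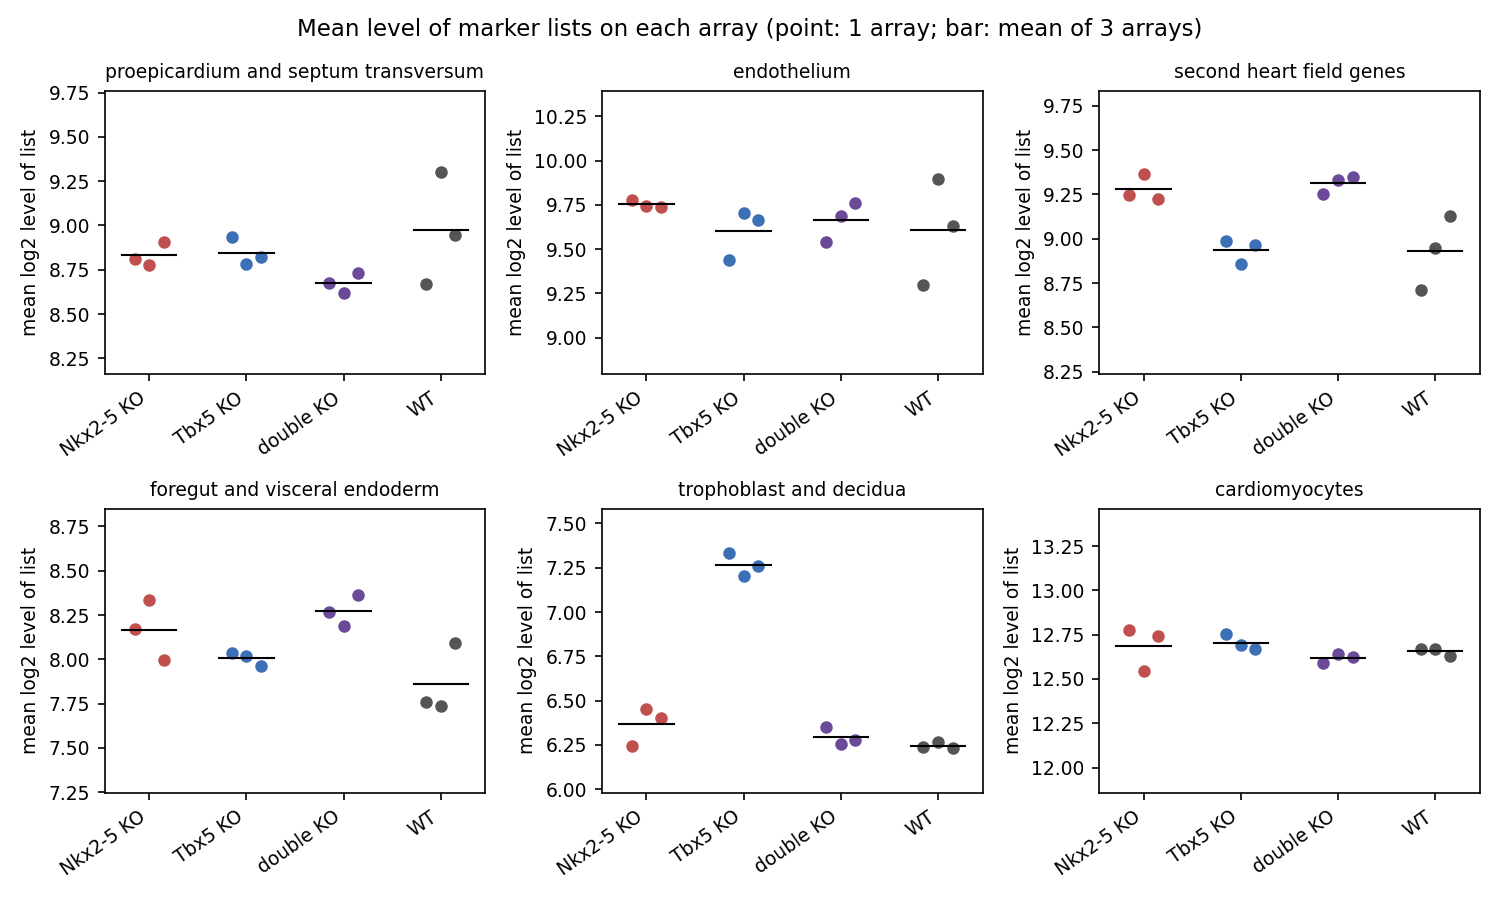
Mean log2 level of 6 gene lists on each array (vertical axis) in Nkx2-5 KO, Tbx5 KO, double KO and WT hearts (horizontal axis). Points are single arrays and bars the mean of 3; the trophoblast list is at 7.21 to 7.33 in Tbx5 KO hearts and the proepicardial list reaches 9.30 on 1 WT array.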

How the data were processed

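Per the labels, heart RNA was isolated (PicoPure kit), amplified (NuGEN Ovation) and labelled with biotin (NuGEN Encore). The authors deposited 1 log2 expression value for each probe set and array. Their normalization software is not given in sources used here. The values ran from 3.21 to 14.7 over 35557 probe sets, and no further normalization was applied. Precision is limited by the 3 arrays a group.

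Symbols came from the platform annotation (21789 with 1 symbol, 1621 with several, 12147 with none). Where a gene had several, the one with the highest mean over 12 arrays was kept, which gave 19938 genes with no filter on dim signals. All 7 members had exactly 1. A model with 4 group means was fitted with limma 3.58.1 (lmFit and eBayes, 8 residual and 4.51 prior degrees of freedom) in R 4.3.3 and tested on simulated data. Tests were two-sided and adjusted over all genes within each of 7 comparisons. Tables and plots used Python 3.11.15 with matplotlib 3.10.9, pandas 2.3.3 and numpy 2.4.6.

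The members and the gene lists were chosen with earlier results of these data known. Named genes are all members, at most 4 called genes of a list with the largest change from WT, and the 3 genes most like each member by Pearson r, leaving out RIKEN clones, predicted genes, vomeronasal and olfactory receptors and small RNAs (microRNAs, small nucleolar RNAs). Nppb and Kcna5 in the ranking of the non-additive term, Aard's term, Aldh1a2 and the sex-linked genes were named after their values were seen. Replicate numbers did not pair the arrays: deviations of same-numbered arrays correlated at -0.27 to 0.21, over 0.1 for 3 of 18 pairs.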

Additional observations from a re-analysis of the deposited data

Results flagged for a closer look

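The difference made by Nkx2-5 loss was not the same with and without Tbx5 for Shox2 and Nr2f1, by a test of that difference. The non-additive term was 1.52 for Shox2 (adjusted p = 0.0076) and 1.52 for Nr2f1 (adjusted p = 0.0109). The mean of Shox2 was below the 25th percentile of genes, and the part of a lower limit of the signal in its term was not tested. For Shox2, Nkx2-5 loss made a difference of 0.82 log2 units in hearts without Tbx5, where the groups were 3 double KO and 3 Tbx5 KO arrays, and of -0.70 in hearts with Tbx5, with 3 Nkx2-5 KO and 3 WT arrays. For Nr2f1 these differences were 0.81 and -0.71. In all 4 of these comparisons every array of the group without Nkx2-5 lay on the same side of every array of the other group. Over all genes, groups were apart for 23.2% in Nkx2-5 KO against WT and for 29% in double KO against Tbx5 KO. The term that flagged both genes is made of these same differences, so their separation is not independent support. The arrays without Nkx2-5 also differ in sex-linked genes from those they are compared with, in both parts of the term, and the part of that was not tested. The Tbx5 KO arrays, which enter 1 part of the term, stood apart in trophoblast and decidua markers. Their mean level was 7.21 to 7.33 there and 6.23 to 6.45 on the other arrays, and the part of that was not tested either.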

How the results depend on the processing

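Over the 49 differences of the members (7 genes in 7 comparisons), 603 alternative values kept their direction and side of the threshold, 33 lost the call, 9 gained one and 20 changed sign, all 20 in differences that were not called. The alternatives were quantile normalization, median centring, an intensity trend with robust priors, array weights, a replicate block, only the arrays compared, a filter on dim signals and leaving out each array. The non-additive terms stayed called in every alternative in which they were tested, for Shox2 at 1.43 to 1.68 (adjusted p 0.00188 to 0.0315) and for Nr2f1 at 1.35 to 1.71 (adjusted p 0.00155 to 0.0456). With the dim filter (14953 genes kept) Shox2 was not tested, so 1 member was called for that term. Members called in Nkx2-5 KO against WT ranged from 0 to 4 without 1 array, in double KO against Nkx2-5 KO from 1 to 3, in double KO against Tbx5 KO from 2 to 3, and in Tbx5 KO against Nkx2-5 KO from 2 to 3. Both comparisons of Tbx5 KO and double KO with WT kept 3 to 4.

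Genes called over all genes changed to 2132 (Nkx2-5 KO against WT), 933 (Tbx5 KO against WT), 2481 (double KO against Nkx2-5 KO), 1424 (Tbx5 KO against Nkx2-5 KO) and 343 (non-additive term) with array weights, from 884, 461, 1109, 476 and 109. With only the arrays compared, double KO against Nkx2-5 KO gave 570. Without 1 array the counts were 169 to 903 (lowest without Nkx2-5 KO replicate 1), 212 to 465 (without WT replicate 3), 521 to 1255 (without double KO replicate 2), 254 to 428 (without Nkx2-5 KO replicate 1) and 48 to 264 (without Nkx2-5 KO replicate 1), in that order of comparisons. Double KO against Tbx5 KO gave 1300 to 2207, around 2139. With the replicate block the non-additive term had 61 called genes, and of the members' calls 1 was lost, that of Nr2f1 in Tbx5 KO against Nkx2-5 KO (-0.68, adjusted p = 0.0731). Centring moved the split of calls in Nkx2-5 KO against WT to 209 higher and 646 lower, beside 367 and 517, and in double KO against WT to 779 and 3769, beside 1804 and 2868. The median over all genes in double KO against WT moved with it to -0.06, beside 0.06.

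Sign changes in uncalled differences were as follows, and their cause was not tested. Tbx3 in double KO against WT was -0.0731 with centring, -0.0327 with array weights and -0.126 to 0.267 without 1 array. Isl1 in double KO against Nkx2-5 KO was 0.0543 after quantile normalization and -0.427 to 0.142 without 1 array. Tbx18 in double KO against Tbx5 KO was -0.0747, -0.0472 and -0.0322 under quantile normalization, centring and array weights and -0.0674 to 0.134 without 1 array, and Tbx2 there was -0.0421 with centring and -0.0564 to 0.119 without 1 array. Leaving out 1 array gave Tbx2 -0.0761 to 0.0364 and Nr2f2 -0.317 to 0.0668 in Nkx2-5 KO against WT, Nr2f1 -0.0375 to 0.319 in double KO against Nkx2-5 KO, and Tbx2 -0.0427 to 0.133 for the non-additive term. Another probe set of a member was not run, since each has 1.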

Other observations

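Beside Shox2, Nr2f1, Nppb, Kcna5, Mab21l2 and Aard, positive non-additive calls included Ccn2, a matrix protein gene responsive to growth factors, and Itga9, an integrin subunit gene. Both were chosen here after their values were seen. Ccn2 averaged 10.3 in Nkx2-5 KO hearts, 9.53 in Tbx5 KO hearts and 10.9 in double KO hearts, against 10.2 in WT hearts, with a term of 1.23 ± 0.20 (adjusted p = 0.0185). Itga9 averaged 10.1, 9.07 and 10.5 in those KO groups, against 9.87 in WT hearts, with a term of 1.17 ± 0.23 (adjusted p = 0.049). As with Shox2 and Nr2f1, the lowest mean of both genes was that of Tbx5 KO hearts.

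Prm1, a protamine gene, was among the genes closest to Isl1 over the arrays. It averaged 11.1 in Nkx2-5 KO hearts, 8.82 in Tbx5 KO hearts and 11.1 in double KO hearts, against 8.62 in WT hearts. Its means thus split by Nkx2-5 genotype. The source of its signal and any link to Isl1 were not tested.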
